A study of Rattus norvegicus with 7 samples.

Results

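Elastin, fibrillar collagen chains of types I and III and proteins that organise them were read by 21 probe sets. These belonged to 7 genes (Eln, Col1a1, Col1a2, Col3a1, Sparc, Lox and Fn1), out of 8740 probe sets and 4736 named genes in the table. These genes were taken by symbol from the platform's annotation, and they were chosen by their values in these same arrays, with the difference between the diet groups already known. Their values between the groups are therefore given as a description. No p-value of a single difference is printed, and counts of these probe sets under a p threshold support nothing. The cells were alveolar type 2 cells from male Sprague Dawley rats, isolated by immunoabsorption. The 3 rats of the ethanol group received a liquid Lieber-DeCarlie diet with ethanol at 36% of calories for 6 weeks. The 4 control rats received an isocaloric diet without ethanol for the same 6 weeks. The ethanol arrays are called ethanol 2, 3 and 4 and the control arrays control 1, 2, 3 and 4, as in their titles. The array numbers in the titles skip a number between the controls and the ethanol arrays, and the series holds no ethanol 1.

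The extracellular matrix of the lung is built from stiff collagen fibrils and stretchable elastic fibres. Type I collagen is assembled from chains encoded by Col1a1 and Col1a2, type III collagen from chains encoded by Col3a1, and elastic fibres from tropoelastin, the product of Eln. Lysyl oxidase, the product of Lox, cross-links both kinds of fibre, Sparc binds collagen, and fibronectin, the product of Fn1, links cells to the matrix. In the lung these fibres are made mainly by fibroblasts and smooth muscle cells, while the alveolar type 2 cell is an epithelial cell that makes surfactant.

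The RefSeq promoter table held 2 of the 7 genes, Col1a2 and Sparc, and a stretch of each is shown for that reason. All but 1 of the 5 probe sets of these genes lay lower with ethanol, and a link of this to the motifs was not tested. The positions count back from the start of the RefSeq gene in the GRCr8 build, and capitals mark matches on either strand to the motif TATAAA, to the motif CCAAT or to the motif GGAGGA.
Col1a2, chr4:33518307-33518406, plus strand, bases 250 to 151 before the start: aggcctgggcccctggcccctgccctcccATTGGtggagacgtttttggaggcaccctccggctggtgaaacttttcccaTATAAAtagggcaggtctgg
Sparc, chr10:40038867-40038966, minus strand, bases 150 to 51 before the start: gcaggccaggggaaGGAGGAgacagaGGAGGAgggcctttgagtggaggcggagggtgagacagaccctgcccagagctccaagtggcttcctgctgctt
In the 250 bases before the start, Col1a2 held 1 TATAAA and 1 reversed CCAAT and no GGAGGA, while Sparc held 2 GGAGGA and neither of the other motifs. Of all 33469 promoters, 12.9% held TATAAA, 34.0% held CCAAT and 27.5% held GGAGGA in the same window. A match describes the letters only.

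Values are the deposited log2 expression values, so a difference of 1 is a doubling, and levels of different probe sets are not read as amounts of RNA relative to each other. A difference is the ethanol mean minus the control mean, and its standard error (SE) comes from the fit over all 8740 probe sets. Pairs of arrays correlated at 0.929 to 0.983. Control 2 stood apart on the first principal component, at 30.5 against -18.9 to 5.83 for the other 6 arrays. At its other end lay control 4 at -15.8 and ethanol 4 at -18.9, with the remaining arrays at -4.25 to 5.83. Type 2 cell markers were bright: the mean of 5 measured markers of 11 (Sftpc, Sftpb, Sftpa1, Sftpd and Nkx2-1) was 9.80 to 10.42 in ethanol arrays and 10.10 to 10.40 in control arrays. All control arrays carry lower array numbers than all ethanol arrays in their titles, so diet and anything that follows this numbering cannot be told apart.

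Elastin signal lay lower in the ethanol arrays. Eln (probe set J04035_at) read 5.70, 5.67 and 5.43 in ethanol 2, 3 and 4, against 6.74, 6.36, 6.46 and 6.01 in control 1, 2, 3 and 4. Every ethanol array lay below every control array, and control 4 was the closest control. The difference was -0.80 (SE 0.173), so the ethanol level was 0.575 times the control level. With each array left out in turn it ran from -0.92 to -0.68. Fewer cells of a type in an isolate and less RNA in each cell cannot be told apart in such bulk samples, and this holds for each gene here.

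All 7 probe sets of Col1a1, Col1a2 and Col3a1 had lower means with ethanol. Type I collagen's Col1a1 chain was read by 4 of them. Its brightest, Z78279_g_at, read 5.92, 5.66 and 5.61 in ethanol 2, 3 and 4, against 6.38, 6.26, 6.52 and 5.76 in control 1, 2, 3 and 4. Ethanol 2 lay above control 4 here, and otherwise the groups were apart. Its companion Z78279_at, made from the same sequence record, read 5.83, 5.32 and 5.40 in ethanol 2, 3 and 4, against 6.15, 6.01, 6.35 and 5.68 in control 1, 2, 3 and 4. The overlap was again that of ethanol 2 with control 4. The differences of this pair were -0.50 (SE 0.185) and -0.53 (SE 0.186).

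The other pair of Col1a1 probe sets showed another order among the controls. Probe set rc_AI231472_s_at read 5.23, 5.13 and 5.39 in ethanol 2, 3 and 4, against 6.66, 5.61, 6.21 and 5.77 in control 1, 2, 3 and 4. Every ethanol array lay below every control array in it. Probe set M27207mRNA_s_at read 4.75, 4.73 and 5.11 in ethanol 2, 3 and 4, against 6.13, 5.06, 5.64 and 5.44 in control 1, 2, 3 and 4, and ethanol 4 stood just above control 2. Their differences were -0.81 (SE 0.231) and -0.70 (SE 0.229). The suffix _s_at marks, in the array maker's naming, probe sets whose probes can match more than one transcript.

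The 2 pairs did not give the same value on each array. The mean of rc_AI231472_s_at and M27207mRNA_s_at minus the mean of the Z78279 pair was -0.88, -0.56 and -0.25 in ethanol 2, 3 and 4, against 0.13, -0.80, -0.51 and -0.11 in control 1, 2, 3 and 4. This gap spread as widely within each diet group as between them, with a mean of -0.56 ± 0.316 in ethanol arrays (SD, n = 3) and -0.32 ± 0.412 in control arrays (SD, n = 4). Control 1 was the highest control in the rc_AI231472_s_at pair and control 3 in the Z78279 pair. For the size of the Col1a1 difference the pairs gave -0.76 and -0.52.

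Col1a2, the partner chain of type I collagen, had the single probe set rc_AA875531_s_at. It read 5.11, 4.95 and 4.99 in ethanol 2, 3 and 4, against 5.84, 6.26, 5.53 and 4.90 in control 1, 2, 3 and 4. The ethanol arrays lay close together, with an SD of 0.084, while the controls had an SD of 0.572. Control 4 was the lowest of all 7 arrays, and the other controls were above every ethanol array. The difference was -0.62 (SE 0.268), and it ran from -0.86 without control 4 to -0.41 without control 2.

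Col3a1, the chain of type III collagen, was read by 2 probe sets that lay lower by different amounts. Probe set X70369_s_at read 5.12, 4.88 and 5.73 in ethanol 2, 3 and 4, against 7.09, 6.18, 6.28 and 5.39 in control 1, 2, 3 and 4. Control 1 was far above the other controls and control 4 lay below ethanol 4. Probe set M21354_s_at read 5.17, 4.95 and 4.99 in ethanol 2, 3 and 4, against 5.94, 5.33, 5.65 and 5.22 in control 1, 2, 3 and 4, with no overlap. The differences were -0.99 (SE 0.352) and -0.50 (SE 0.179).

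The wider difference of X70369_s_at went with a wider spread. X70369_s_at minus M21354_s_at was -0.054, -0.065 and 0.74 in ethanol 2, 3 and 4, against 1.15, 0.85, 0.63 and 0.17 in control 1, 2, 3 and 4. Ethanol 4 thus lay among the controls in this gap, and control 4 among the ethanol arrays. Without control 4 the X70369_s_at difference was -1.27, and without control 1 it was -0.71.

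**Figure D1:**
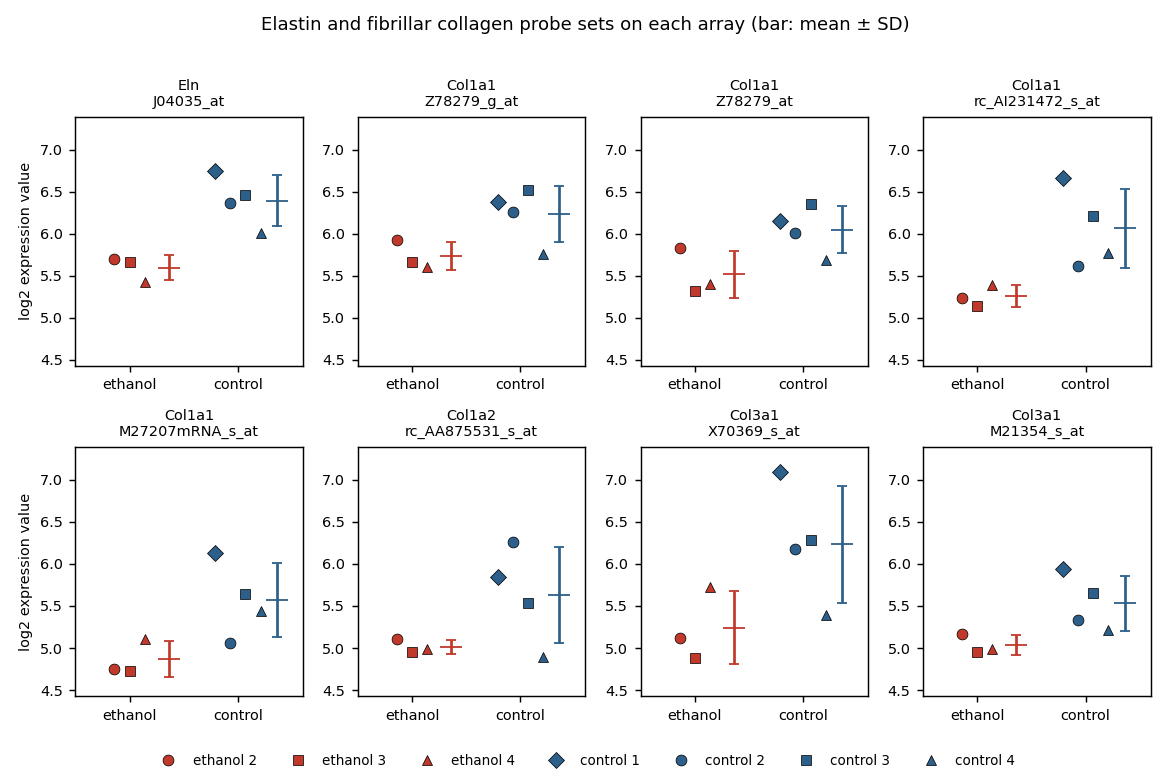
Log2 expression value (vertical axis) of the Eln, Col1a1, Col1a2 and Col3a1 probe sets in the 3 ethanol arrays (left, red) and the 4 control arrays (right, blue), one symbol per array, with the mean and SD of each group as a bar. Control 4 (blue triangle) is the lowest control in 6 of the 8 panels, and in Eln, which read 6.01 there, it is still above the ethanol arrays.

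Over the 8 elastin and collagen probe sets, some arrays often held the same place. Of the 8, 4 read Col1a1 and 2 read Col3a1, so these counts take the same gene repeatedly. Control 4 was the lowest control in 6 of the 8, and it lay within or below the ethanol range in 4 of them. Control 2 did so in 1, M27207mRNA_s_at, and control 1 and control 3 in none. Control 1 was the highest control in 5 of the 8, while control 2 was the highest control in 1 and the lowest in 2. Among the ethanol arrays, ethanol 3 was the lowest in 6 of the 8 and ethanol 2 the highest in 5. The mean of the 7 collagen probe sets was 5.31, 5.09 and 5.32 in ethanol 2, 3 and 4, against 6.31, 5.82, 6.03 and 5.45 in control 1, 2, 3 and 4. In this mean control 4 lay 0.13 above the highest ethanol array. Without control 2, the array that stood apart over all probe sets, the differences were -0.81 for Eln, -0.49 for Z78279_g_at, -0.41 for Col1a2 and -1.01 for X70369_s_at.

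Whether the collagen and elastin probe sets moved together within a diet group was tested on the deviation of each array from its group mean, over 7 arrays, with the arrays permuted within groups in all 144 ways. Col1a1 and Col1a2 had a Pearson r of 0.63 (exact permutation p = 0.34) and a Spearman rho of 0.29 (exact permutation p = 0.694). Col1a1 and Col3a1 had a Pearson r of 0.57 (exact permutation p = 0.34) and a Spearman rho of 0.39 (exact permutation p = 0.458). Neither relation passed its test. Each gene was read here by its brightest probe set, Col1a1 by Z78279_g_at and Col3a1 by X70369_s_at. Relations of their other probe sets, which ordered the controls otherwise, were not tested. For Col1a2 and Col3a1 the Pearson r was 0.56 (exact permutation p = 0.299) and the Spearman rho 0.50 (exact permutation p = 0.417). The mean of the 3 collagen genes and Eln had a Pearson r of 0.79 (exact permutation p = 0.146) and a Spearman rho of 0.43 (exact permutation p = 0.458). That relation rested on 2 arrays, since r was -0.47 without control 4 and control 1. Without the 2 arrays farthest from the median, r was 0.31 for Col1a1 with Col1a2, 0.14 for Col1a1 with Col3a1 and 0.61 for Col1a2 with Col3a1. Over the 5 relations tested, the lowest Benjamini-Hochberg adjusted exact permutation p was 0.425 for Pearson's r and 0.764 for Spearman's rho.

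Sparc, a secreted glycoprotein that binds collagen and calcium, was read by 4 probe sets that pointed in opposite directions. Its brightest probe set, rc_AA892248_at, read 7.69, 7.30 and 6.90 in ethanol 2, 3 and 4, against 6.53, 6.29, 5.81 and 6.51 in control 1, 2, 3 and 4. Every ethanol array lay above every control array in it. Probe set Y13714_at read 6.23, 5.42 and 5.97 in ethanol 2, 3 and 4, against 6.79, 6.67, 6.76 and 6.46 in control 1, 2, 3 and 4. Here every ethanol array lay below every control array. The differences were 1.01 (SE 0.224) for rc_AA892248_at and -0.80 (SE 0.190) for Y13714_at.

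The remaining Sparc probe sets lay on the side of Y13714_at. Probe set rc_AA891204_s_at read 3.22, 3.06 and 3.36 in ethanol 2, 3 and 4, against 4.29, 4.29, 4.31 and 3.77 in control 1, 2, 3 and 4. The groups did not overlap, and control 4 was again the lowest control. The mean of this probe set over all arrays, 3.76, was below the median probe set mean of 4.59. Probe set rc_AA946313_s_at read 5.10, 4.45 and 5.17 in ethanol 2, 3 and 4, against 5.37, 5.12, 5.52 and 5.29 in control 1, 2, 3 and 4. Ethanol 4 stood above control 2, and ethanol 3 was far below the rest. The differences were -0.95 (SE 0.161) and -0.42 (SE 0.187), and without ethanol 3 that of rc_AA946313_s_at was -0.19.

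**Figure D2:**
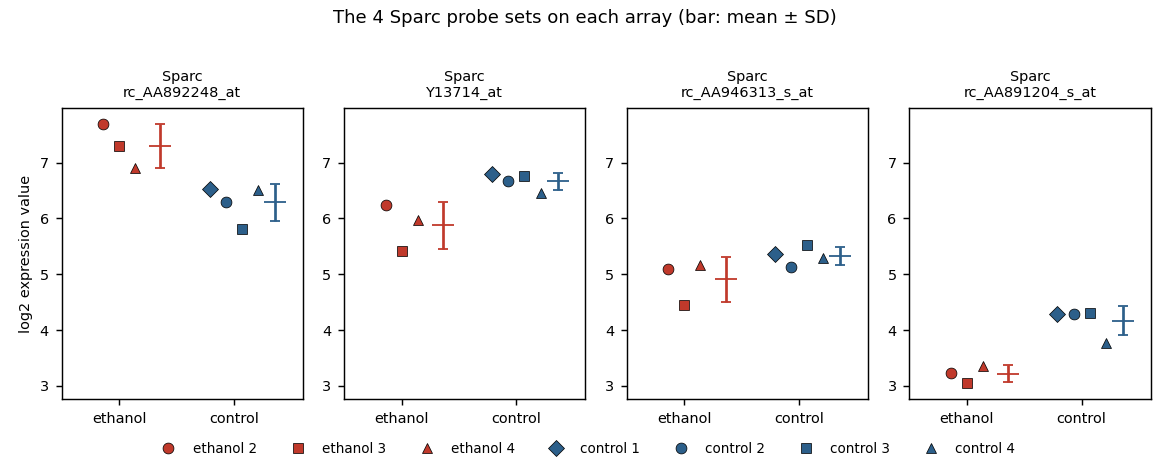
Log2 expression value (vertical axis) of the 4 Sparc probe sets in the 3 ethanol arrays (left, red) and the 4 control arrays (right, blue), one symbol per array, with the mean and SD of each group as a bar. In rc_AA892248_at the ethanol arrays average 7.30 and the controls 6.29, while in Y13714_at the ethanol arrays average 5.87 and the controls 6.67.

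The gap between these probe sets was set out array by array. The value of rc_AA892248_at minus the mean of the 3 other Sparc probe sets was 2.84, 2.99 and 2.07 in ethanol 2, 3 and 4, against 1.04, 0.93, 0.28 and 1.34 in control 1, 2, 3 and 4. The gap was wider in each ethanol array than in each control array, by 1.73 between the group means. The mean of the 3 other probe sets was 4.66 ± 0.310 in ethanol arrays (SD, n = 3) and 5.39 ± 0.161 in control arrays (SD, n = 4), a difference of -0.72. Within the diet groups, rc_AA892248_at and that mean had a Pearson r of -0.21 over 7 arrays (exact permutation p = 0.757) and a Spearman rho of 0.11 (exact permutation p = 0.903). The Pearson r was -0.087 without ethanol 3 and control 4. With each array left out in turn, rc_AA892248_at kept a positive difference (0.81 to 1.21), and the others kept negative ones, -0.98 to -0.57 for Y13714_at and -1.08 to -0.88 for rc_AA891204_s_at. The direction of Sparc thus depended on the probe set read, and which transcripts each probe set reads was not tested.

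Lox, the enzyme that cross-links collagen and elastin, was read by 4 dim probe sets with values near each other in the groups. Probe set rc_AI234060_s_at read 4.12, 4.30 and 4.20 in ethanol 2, 3 and 4, against 3.92, 4.40, 4.22 and 4.13 in control 1, 2, 3 and 4. The ethanol values lay inside the control range, and the difference was 0.042 (SE 0.136). The differences of S77494_s_at and rc_AA875582_at were -0.052 (SE 0.116) and 0.036 (SE 0.132), with overlapping groups. In S66184_s_at the values were 3.09, 2.92 and 3.01 in ethanol 2, 3 and 4, against 3.29, 3.11, 3.40 and 3.30 in control 1, 2, 3 and 4. Those groups did not overlap, by a margin of 0.017 between ethanol 2 and control 2, and the difference was -0.27 (SE 0.118). The mean of each of the 4 probe sets over all arrays, 3.16 to 4.18, was below the median probe set mean of 4.59, and the files give no detection call, so a difference in Lox could be missed.

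Fibronectin probe sets had small differences of either sign. Of the 5 Fn1 probe sets, U82612cds_at read 5.003, 4.69 and 4.84 in ethanol 2, 3 and 4, against 4.75, 4.75, 5.14 and 5.13 in control 1, 2, 3 and 4. The groups overlapped, and the difference was -0.099 (SE 0.151). Probe sets X05834_at and U82612cds_g_at had differences of -0.068 (SE 0.164) and -0.051 (SE 0.170). M28259cds_at and X05831cds_at had positive ones, 0.15 (SE 0.129) and 0.22 (SE 0.125). In X05831cds_at the values were 3.41, 3.35 and 3.45 in ethanol 2, 3 and 4, against 3.25, 2.96, 3.17 and 3.35 in control 1, 2, 3 and 4, so that ethanol 3 and control 4 overlapped. The groups overlapped in each of the 5 probe sets. The mean of the 5 was 4.31 ± 0.103 in ethanol arrays (SD, n = 3) and 4.28 ± 0.130 in control arrays (SD, n = 4), a difference of 0.029.

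**Figure D3:**
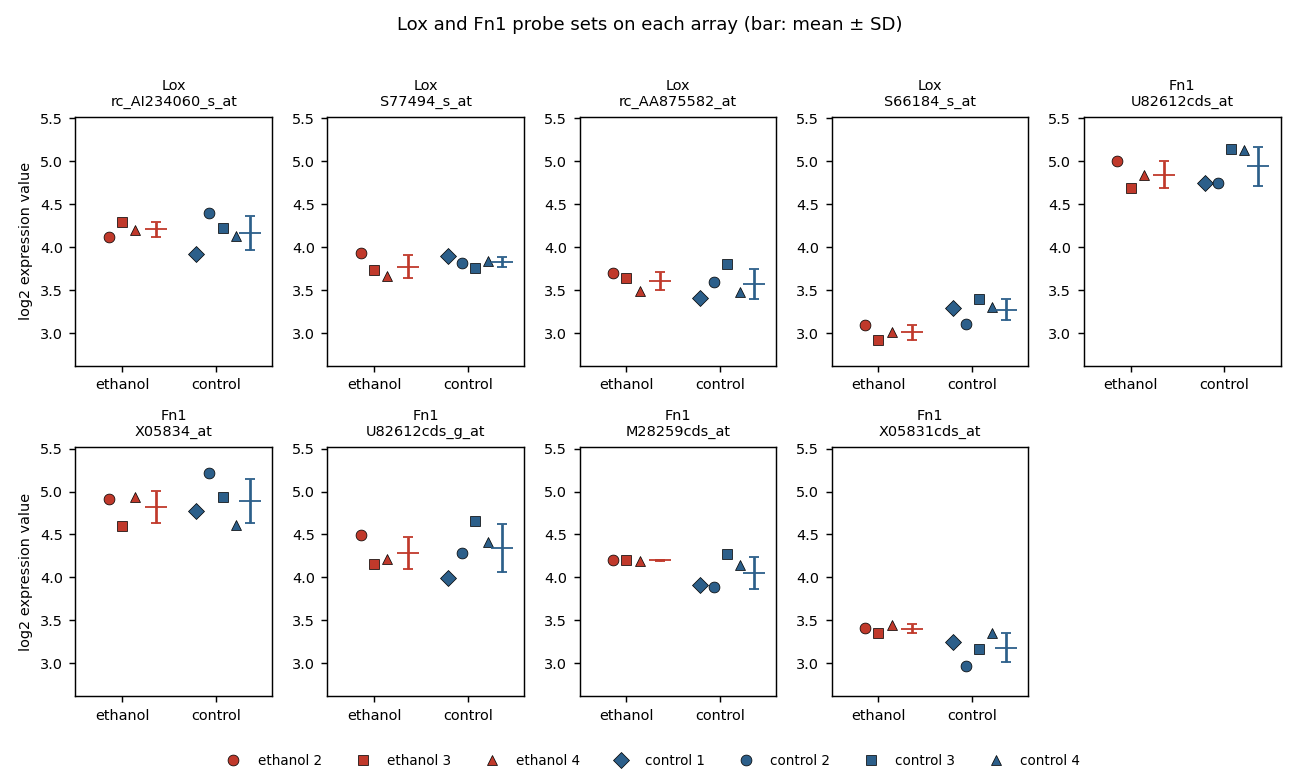
Log2 expression value (vertical axis) of the 4 Lox and 5 Fn1 probe sets in the 3 ethanol arrays (left, red) and the 4 control arrays (right, blue), one symbol per array, with the mean and SD of each group as a bar. The groups overlap in each panel except Lox S66184_s_at, where the means are 3.01 in ethanol arrays and 3.27 in control arrays.

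Of the 21 probe sets, 16 had a negative difference and 5 a positive one, with a median of -0.42, against a median of -0.0051 over all 8740 probe sets. In limma (Benjamini-Hochberg adjusted p under 0.05 over all 8740), 0 of the 21 passed, where 0.149% of all probe sets did, and 12 of the 21 were at an unadjusted p under 0.05, where 4.58% of all probe sets were. All ethanol arrays lay below all controls in 6 of the 21, where 2.71% of all probe sets did. They lay above all controls in 1, where 2.53% did. These shares follow from the choice of the genes and support nothing. Read by the brightest probe set of each gene, 5 of the 7 genes were negative and 2 positive, with a median of -0.50, against -0.014 over all 4736 genes. Sparc was one of the positive 2 only through rc_AA892248_at.

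**Figure D4:**
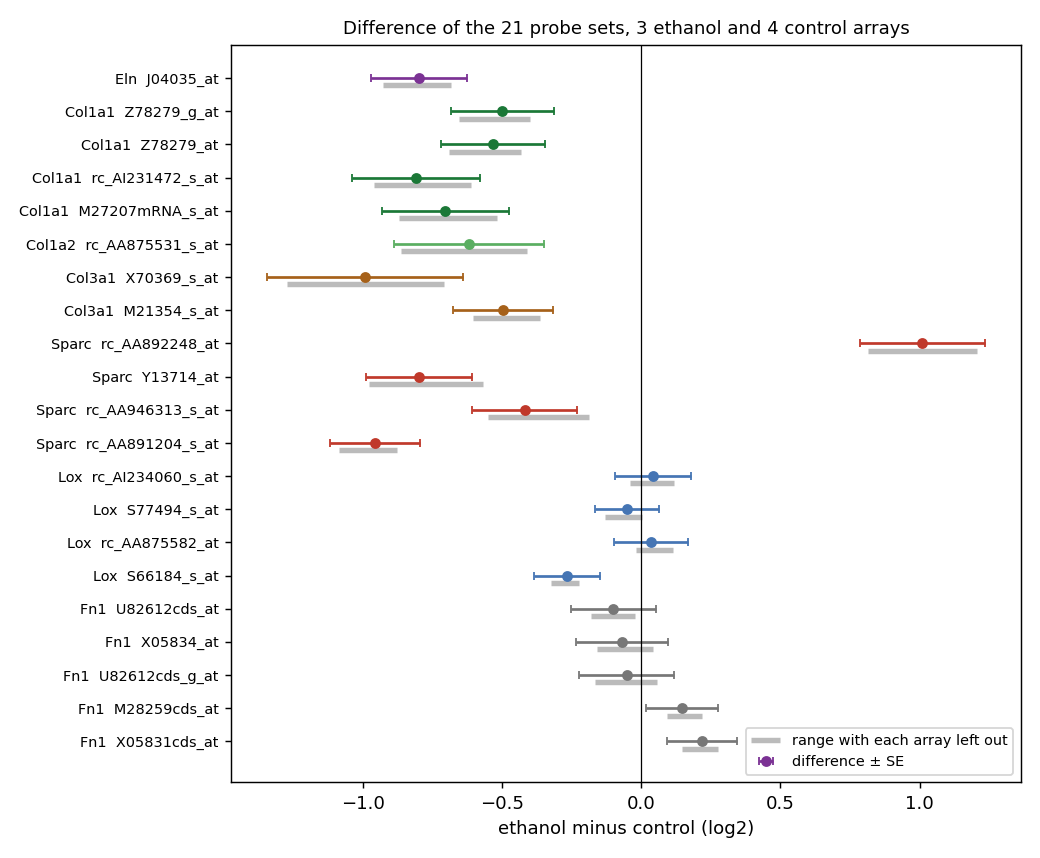
Difference of ethanol minus control on the log2 scale (horizontal axis) for the 21 probe sets (rows), with the SE as a bar and the range with each array left out in turn as a grey line. The elastin and collagen rows lie between -0.99 and -0.50, Sparc spans -0.95 to 1.01, and the Lox and Fn1 rows lie between -0.27 and 0.22.

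Other matrix genes had differences of -0.55 to 0.55. The lists named 135 genes beside these 7, of which 70 were measured. Of the 70, 43 were negative and 27 positive, with a median of -0.042. In limma 0 passed, where 0.149% of all probe sets did, and 2 had positive and 2 negative differences at an unadjusted p under 0.05, where 4.58% of all probe sets were. All ethanol arrays lay below all controls in 1 of the 70 (Ltbp1) and above them in 3 (Efemp1, Plod3 and Lama3), with 2.71% and 2.53% of all probe sets doing so. The 70 were read by the brightest probe set of each gene. Of all 4736 genes read in that way, 1 passed, and 85 positive and 122 negative ones were at an unadjusted p under 0.05. Ethanol arrays lay below all controls in 134 of the 4736 and above them in 99.

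Of 10 other collagens, 9 were negative and 1 positive, with a median of -0.087, and 0 passed. Col12a1, a collagen that binds to the surface of fibrils, averaged 3.70 in ethanol arrays and 4.07 in control arrays, a difference of -0.37 (SE 0.187). Col2a1, the fibrillar collagen of cartilage, was at -0.36 (SE 0.195) with a second probe set at -0.12. The fibrillar collagen genes Col5a1 and Col5a2 were at -0.030 (SE 0.129) and -0.19 (SE 0.203). Col11a1, also fibrillar, was at -0.0091 (SE 0.150) with a second probe set at 0.048. The basement membrane collagens Col4a5 and Col4a3 were at -0.22 (SE 0.167) and -0.023 (SE 0.184). The groups overlapped in each of the 10.

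Of 5 elastic fibre scaffold genes, 3 were negative and 2 positive, with a median of -0.054, and 0 passed. Ltbp1, which encodes a binding protein of latent TGF-beta, averaged 4.63 in ethanol arrays and 5.03 in control arrays, a difference of -0.40 (SE 0.165). Efemp1, a fibulin, averaged 4.85 in ethanol arrays and 4.30 in control arrays, a difference of 0.55 (SE 0.216), while its other probe set was at 0.11. Fbln5, a fibulin needed for elastic fibre assembly in mice, was at -0.23 (SE 0.175).

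Of 9 collagen maturation and cross-linking genes, 6 were positive and 3 negative, with a median of 0.10, and 0 passed. Plod3 and Plod2, which encode lysyl hydroxylases of collagen, were at 0.19 (SE 0.114) and -0.20 (SE 0.147). Pcolce, an enhancer of procollagen processing, was at -0.17 (SE 0.149). Loxl1, a lysyl oxidase relative, was at 0.12 (SE 0.163) with another probe set at -0.18, and P4ha1, a subunit of prolyl hydroxylase, at 0.055 (SE 0.272).

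Of 12 matricellular and adhesive glycoprotein genes, 8 were negative and 4 positive, with a median of -0.061, and 0 passed. Mfge8, a secreted adhesive protein, was at -0.38 (SE 0.146), and Tnc, tenascin C, at 0.32 (SE 0.158) with its lowest probe set at -0.022. Sparcl1, the closest relative of Sparc on the lists, was at 0.036 (SE 0.135), and Vtn, vitronectin, at -0.24 (SE 0.161). Of 8 basement membrane genes, 6 were negative and 2 positive, with a median of -0.078, and 0 passed. Among them the laminin chain genes Lama3, Lama1 and Lama2 were at 0.31 (SE 0.140), -0.25 (SE 0.162) and -0.11 (SE 0.128), and Nid1, nidogen, at -0.13 (SE 0.129).

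Of 18 proteoglycan and hyaluronan genes, 10 were negative and 8 positive, with a median of -0.054, and 0 passed. The small collagen-binding proteoglycan genes Dcn and Bgn were at 0.20 (SE 0.239) and -0.16 (SE 0.124), with the 4 Dcn probe sets running from -0.13 to 0.27. Vcan, versican, was at 0.19 (SE 0.134), and Has2, a hyaluronan synthase, at -0.28 (SE 0.186). Of 8 matrix receptor genes, 4 were negative and 4 positive, with a median of -0.0012, and 0 passed. The collagen receptor subunit Itga1 was at -0.35 (SE 0.190), the integrin subunit genes Itga8 and Itgb3 at -0.20 (SE 0.202) and 0.20 (SE 0.179), and Cd44, a hyaluronan receptor, at 0.29 (SE 0.204) with its lowest probe set at -0.32. In limma, 0.967 was the lowest adjusted p of the 70 genes.

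**Figure D5:**
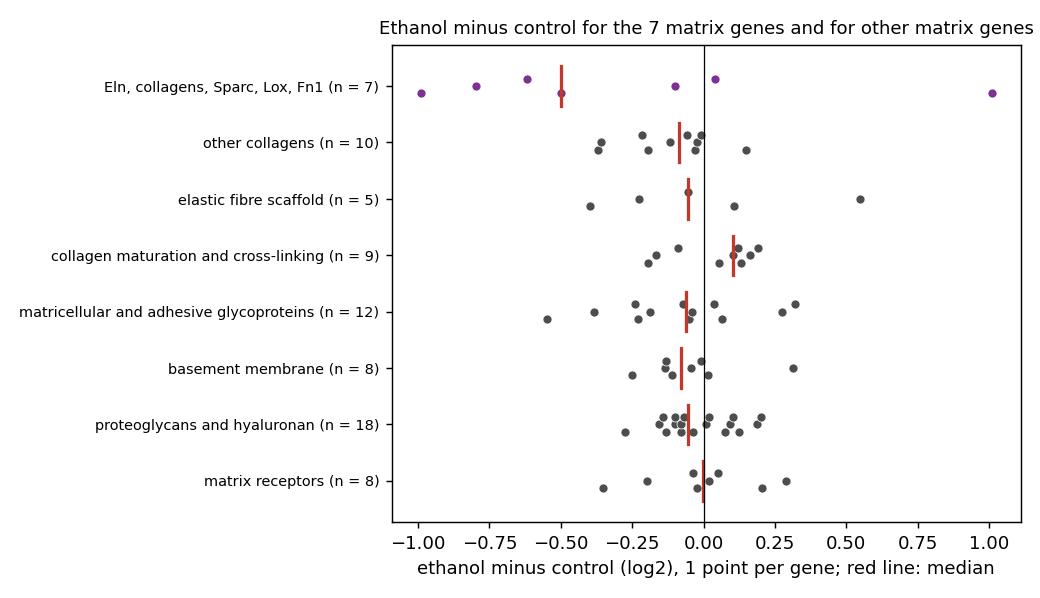
Difference of ethanol minus control on the log2 scale (horizontal axis), 1 point for each gene read by its brightest probe set, for the 7 matrix genes (top row) and the other matrix lists (rows below), with the median of each row as a red line. The medians of the 7 other lists lie between -0.087 and 0.10, and that of the 7 genes, which were chosen for their difference, at -0.50.

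Markers of the cells that commonly make these fibres were set beside the values. The mean of 7 measured fibroblast markers of 12 was 5.26 to 5.43 in ethanol arrays and 5.11 to 5.37 in control arrays, a difference of 0.13 (exact permutation p = 0.171). Of these 7 genes 4 were positive and 3 negative, with Vim, vimentin, at 0.76, and Thy1 at -0.30 with its other probe set at -0.031. Vim ran from 6.24 to 7.21 in ethanol arrays and from 5.03 to 7.52 in control arrays. Without Vim, a choice made after seeing the data, the mean of the other 6 markers was 5.04 to 5.13 in ethanol arrays and 5.02 to 5.12 in control arrays, a difference of 0.020. The mean of 9 measured smooth muscle markers of 12 was 4.90 to 5.001 in ethanol arrays and 4.99 to 5.14 in control arrays, a difference of -0.11 (exact permutation p = 0.114). Of these 9 genes 8 were negative, with Tagln at -0.28, Myh11 at -0.20 and Acta2 at -0.10. The 2 Tagln probe sets were at -0.32 and -0.28. The 3 Myh11 probe sets ran from -0.52 to 0.046 and the 3 Acta2 probe sets from -0.22 to 0.21. All ethanol arrays lay below all controls in 2 of the 9 (Tagln and Myh11) and above them in 0. Of the 7 fibroblast genes they did so in 1 (Thy1) and 1 (Fgf10). Of all probe sets 2.71% lay below and 2.53% above. With each array left out in turn, the difference ran from 0.080 to 0.18 for the fibroblast list and from -0.14 to -0.081 for the smooth muscle list. The part of either cell type in the collagen and elastin values was not tested.

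The other cell type lists were given the same way. The difference in the list mean was -0.12 for the 1 measured mesothelial marker (Wt1), -0.097 for 6 endothelial markers, -0.0082 for 6 macrophage markers and -0.11 for 5 type 2 cell markers. It was 0.10 for 5 type 1 cell markers, 0.23 for 3 club cell markers, -0.082 for 2 B and plasma cell markers and -0.14 for 8 T and natural killer cell markers. With each array left out in turn, 3 of these lists changed sign: type 2 cell markers ran from -0.24 to 0.066, macrophage markers from -0.035 to 0.024, and B and plasma cell markers from -0.16 to 0.0069. Club cell markers ran from 0.095 to 0.52, the highest without control 1, and type 1 cell markers from 0.023 to 0.18. Endothelial markers ran from -0.14 to -0.047, Wt1 from -0.16 to -0.071, and T and natural killer cell markers from -0.17 to -0.10. Over the 10 lists the lowest adjusted exact permutation p was 0.4, and 0.0286 is the smallest unadjusted p that 35 divisions of the arrays allow. After adjustment over 10 lists a single list could therefore not pass, and the test cannot decide whether a single list differed.

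The probe sets whose deviations within the diet groups were most like those of Eln belonged to Plk4, Rhno1, Ppa2, Bcl2l11 and Sox13, with r of 0.971 to 0.993 over 7 arrays. For Sparc rc_AA892248_at they belonged to Mip, Kcnh6, Zbtb24, Klk1 and Zfp64 (r of 0.949 to 0.991), and for the mean of the 3 collagen genes to Cyp11b2, Arfrp1, Cdo1, Cyb5r3 and Usp19 (r of 0.968 to 0.987). None of these 15 genes was on a matrix list. They were the highest of 6985 probe sets over 7 arrays, so values this near 1 describe these arrays only.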

How the data were processed

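The deposited table gives 1 value per probe set and array. The values run from 1.65 to 12.84 and were taken as log2 signal on that basis, as deposited. The authors' probe summarisation, background correction and normalization are not given in the sources used here, and differences of dim probe sets may be compressed by such steps. The 59 control probe sets of the array (names starting AFFX) were not tested. Probe sets were named from the platform annotation (1 symbol for 7006, several for 308, none for 1426), and symbols were checked by Entrez identifier against RefSeq's GRCr8 gene table (6985 matched, 0 changed). The brightest probe set by mean over the 7 arrays stood for a gene.

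Each of the 8740 probe sets was fitted with limma 3.58.1 in R 4.3.3 on diet group alone, two-sided, with Benjamini-Hochberg adjustment. Marker list means were compared with two-sided exact permutation tests. The samples were separate animals per the design text, so p-values measure the spread between animals, and the number of arrays limits the precision (median SE 0.148). The 7 genes and all gene lists were chosen with earlier results of these data known. Of each matrix list the first 2 measured genes and up to 3 with the lowest p were named, and for likeness the 5 closest probe sets. Col5a1, Col5a2 and Col11a1 were named in addition, as fibrillar collagen genes. Alternatives were quantile normalization, centring on the median, weighting of arrays, the replicate number as a block, omission of each array, omission of the dimmest 40% of probe sets, a robust variance prior with a trend, other choices of probe set and, added after seeing the data, omission of Vim from the fibroblast list. Tested on simulated data of 8740 probe sets with 200 changed, limma called 33.1% of those changed 1.5-fold, 77% of those changed 2-fold and 96.8% of those changed 4-fold, and 5.78% of calls were false. The simulated noise was normal and independent between probe sets, while the first principal component of the real arrays held 44.2% of the variance. These shares therefore may not hold for the real arrays. Matplotlib 3.10.9 under Python 3.11.15 made the figures.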

Additional observations from a re-analysis of the deposited data

Results flagged for a closer look

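In 5 of 59 measures, 1 of the 4 control arrays stood far from the other 3, measured as the gap to its nearest neighbour over the range of the controls. Chance gives about 1 in 20. Sparc rc_AA891204_s_at read 3.77 in control 4 and 4.29 to 4.31 in the other controls. Lama2, a laminin chain gene, read 3.18 in control 4 and 3.49 to 3.55 in the other controls. Col4a3, a basement membrane collagen gene, read 3.76 in control 3 and 3.06 to 3.10 in the others. Bgn, the biglycan gene, read 6.52 in control 2 and 6.21 to 6.24 in the others. The mean of the 3 measured club cell markers was 8.71 in control 1 and 7.43 to 7.58 in the others.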

How the results depend on the processing

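Whether the replicate numbers shared by the groups pair the animals is not known. Same-numbered arrays had deviations that correlated at 0.43, 0.067 and 0.43, and differently numbered arrays at -0.53 to 0.085. Ethanol 3 correlated at 0.085 with control 2 and at 0.067 with control 3. With the replicate block, 23 probe sets of all passed against 13 without it, and 0 of the 21 matrix probe sets and 0 of the 70 other matrix genes passed. Array weights gave 19 of all probe sets and 1 of the 21, the dim Sparc rc_AA891204_s_at. With each array left out, 13 to 16 of all probe sets passed, and 0 of the 21 except for 1 without control 4 (rc_AA891204_s_at). Nothing is read from that, since the genes were chosen on these arrays. Of the 21 probe sets 14, and of the 70 other genes 41, stayed in when the dimmest probe sets were left out, and 0 of either passed. In the other alternatives 0 of the 70 passed too, with 0 to 7 at an unadjusted p under 0.05. The 0 came without control 3, where 231 of all probe sets were at that level, and the 7 without control 4, where 789 were. None of the 10 marker lists passed with quantile normalization, where a single list could not pass the exact test, or with the replicate block. The block was fitted to the list means in limma. There 2 lists were at an unadjusted p under 0.05, against 0 in the main exact test. The median over the 7 genes ran from -0.66 to -0.40 with each array left out and from -0.62 to -0.45 otherwise. Of 231 alternative values of the 21 differences, 12 had the other sign, all in Lox or Fn1 probe sets within 0.068 of 0. The replicate block gave the same differences as omission of control 1, which has no ethanol array of its number. Those values are counted under both settings, so the settings are not separate checks of a difference. Of the 231 values, 1 moved by more than the SD between arrays, rc_AA946313_s_at at -0.73 with array weights. The cause was not tested.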
